A study of Mus musculus with 10 samples.

Results

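Cystatins are proteins that block cysteine proteases, and the 7 genes described here are 3 cystatins (Cst7, Cst3 and Cstb) and 4 lysosomal cysteine proteases (Ctsc, Ctsl, Ctsw and Lgmn). They were taken by gene symbol from a mouse array of 22180 named genes. All 7 were measured, and each was read from its brightest probe set by mean over the 10 arrays; only Cst3 had another. The genes were chosen by their signals in this same comparison of the groups, already known from these arrays, so their values in it are a description and support no claim about the family.

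The arrays measured messenger RNA in regulatory T (Treg) cells, Foxp3-positive CD4 T cells with a restraining role in immunity, sorted from mixed bone marrow chimeras without culture. Such chimeras are mice whose blood cells come from donors of more than 1 kind. There were 5 wild type (WT) samples and 5 LKB1-deficient samples titled Stk11 deletion, each on its own array, and Stk11 is the gene of the protein kinase LKB1. The comparison asks which Treg transcripts depend on LKB1. The promoter that drove the deletion, the deleted exons, the mice's age and any pooling of animals are not given in the labels. Nothing says that a group's samples came from separate animals, and the p-values then reflect just the spread of these arrays, which may be technical. Values are log2 signals. Each difference is the Stk11 deletion mean less the WT mean in log2 units, with its standard error (SE) from limma, and a call means an adjusted p (Benjamini-Hochberg, all 22180 genes) under 0.05.

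Lysosomal cysteine proteases degrade proteins delivered to the lysosome, trim the invariant chain and antigens for MHC class II display, and activate other proteases. Cathepsin C removes dipeptides from granzymes and thereby activates them, and legumain, which cuts after asparagine, processes several cathepsins. Cystatin F, the product of Cst7, differs from other cystatins in being routed to endosomes and lysosomes, where its monomer inhibits cathepsin C; cytotoxic lymphocytes and myeloid cells are its best known sources. Cystatin C (Cst3) is secreted by most cells and cystatin B (Cstb) is cytosolic.

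Several arrays stood apart before any member was considered. By the running codes in the sample descriptions, arrays 1 to 3 of both groups form set 1, with 6 arrays, and arrays 4 and 5 form set 2, with 4 arrays; the meaning of these codes is not given. Correlation over genes between arrays was 0.990 to 0.993 within WT and 0.969 to 0.989 within the Stk11 deletion group. Stk11 itself was at 6.61 to 6.95 on WT arrays and at 6.57, 6.01, 6.05, 6.71 and 6.78 on Stk11 deletion arrays 1 to 5, so arrays 4 and 5 lay within the WT range, although below both WT arrays of set 2 (6.95 and 6.92); whether its probe set covers the deleted part is not known. Foxp3 was at 10.95 to 11.19 on WT arrays and 11.10 to 11.50 on Stk11 deletion arrays 2 to 5, and at 9.86 on array 1. The mean of 27 macrophage, monocyte and dendritic cell markers was 6.16 to 6.44 on WT arrays, 6.70, 6.19 and 6.43 on Stk11 deletion arrays 1, 2 and 3, and 8.49 and 8.61 on arrays 4 and 5. On arrays 4 and 5, 25 of the 27 were above every WT array; Csf1r, the receptor for the macrophage growth factor, was at 10.55 and 10.49 there, with WT arrays at 6.94 to 7.53. Lyz2, the gene of that list with the highest mean, was at 11.01 and 10.98 there, at 9.87, 9.68 and 9.76 on Stk11 deletion arrays 1 to 3 and at 8.69 to 9.57 on WT arrays, so it was above the WT range on all 5. The mean of 13 B and plasma cell markers was 6.35, 5.92 and 6.05 on Stk11 deletion arrays 1, 4 and 5, 4.99 and 5.09 on arrays 2 and 3 and 4.88 to 5.26 on WT arrays. The NK and cytotoxic T cell list of 11 markers was at 5.84, 5.81 and 5.90 on those same 3 arrays, with WT arrays at 5.14 to 5.27. On arrays 4 and 5, 5 of the 11 were above every WT array and 2 below; Fcgr4, an Fc receptor gene that macrophages also express, was at 7.93 and 7.96 there, with WT arrays at 4.33 to 5.12. Neutrophil markers (9) averaged 5.67 on array 1 and 4.92 and 4.96 on arrays 4 and 5, above a WT maximum of 4.67. Erythroid and platelet markers (5) were above the WT maximum of 5.46 on all 5 Stk11 deletion arrays, at 5.71, 5.57, 5.71, 6.595 and 6.287, and the platelet gene Gp9 rose (0.95, adjusted p = 0.0204 in limma). The brightest genes of the other lists, Cd79b (B cells), S100a9 (neutrophils), Ppbp (platelets) and Cd3e (T cells), differed by 0.54, 0.78, 1.28 and -0.16, none called. The table has no detection calls, so no marker can be said to be absent. In bulk samples, fewer cells of a type and less RNA per cell cannot be told apart.

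Cst7 was lower on every Stk11 deletion array than on any WT array. It was at 9.31, 9.02, 9.55, 9.41 and 9.21 on WT arrays 1 to 5 and at 8.68, 7.26, 7.50, 7.65 and 8.22 on Stk11 deletion arrays 1 to 5. The means were 9.30 ± 0.20 (SD, n = 5) and 7.86 ± 0.58 (SD, n = 5), so Cst7 was 2.71-fold lower (difference -1.44, SE 0.23, adjusted p = 0.0165 in limma). It was the only member called: 1 of 7 was called lower and 0 higher, where 1.06% of all genes were called, 0.83% lower and 0.234% higher. Its groups were also the only ones of the 7 that did not overlap, where 4.71% of all genes did not overlap, 3.71% with every Stk11 deletion array below every WT array and 0.996% with every one above. The rule that chose the members used this contrast, so nothing is read from these counts.

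The decrease of Cst7 had nearly the same size in both sets. It was -1.48 in set 1 and -1.37 in set 2, and the sets' differences were 0.11 apart (95% confidence interval -0.99 to 1.21, limma interaction adjusted p = 0.991), an interval too wide to show that they were equal. Stk11 deletion arrays 2 and 3 had the lowest Cst7 of all 10 arrays. Their macrophage and B cell marker means lay within the WT range and their erythroid and platelet means above it. Their NK and cytotoxic T cell means, 5.13 and 5.08, lay below the WT minimum of 5.14. The neutrophil mean of array 2 (4.10) was also below its WT minimum of 4.32. Array 1, with the highest B cell marker mean and the lowest Foxp3, had the highest Cst7 of its group. In a limma fit that also held, as covariates, each array's mean of the macrophage list and of the B cell list, the difference was -1.89 (SE 0.16, adjusted p = 6.3e-04). Both list means left the WT range only on Stk11 deletion arrays 1, 4 and 5, so that fit leans on arrays 2 and 3, where Cst7 was lowest. Leaving out arrays 1, 4 and 5 gave -1.92. Neither fit can tell the deletion from the cell content of the arrays. The call was lost without WT array 1 (adjusted p = 0.0524), 3 (0.0580) or 4 (0.0565), and in set 1 alone (0.25), where limma with 3 arrays against 3 called 0 of 22180 genes and 2247 had an unadjusted p under 0.05. In the other 7 fits that left out 1 array the adjusted p was 0.0431 or less, and over all 10 the difference ran from -1.64 to -1.29.

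**Figure D1:**
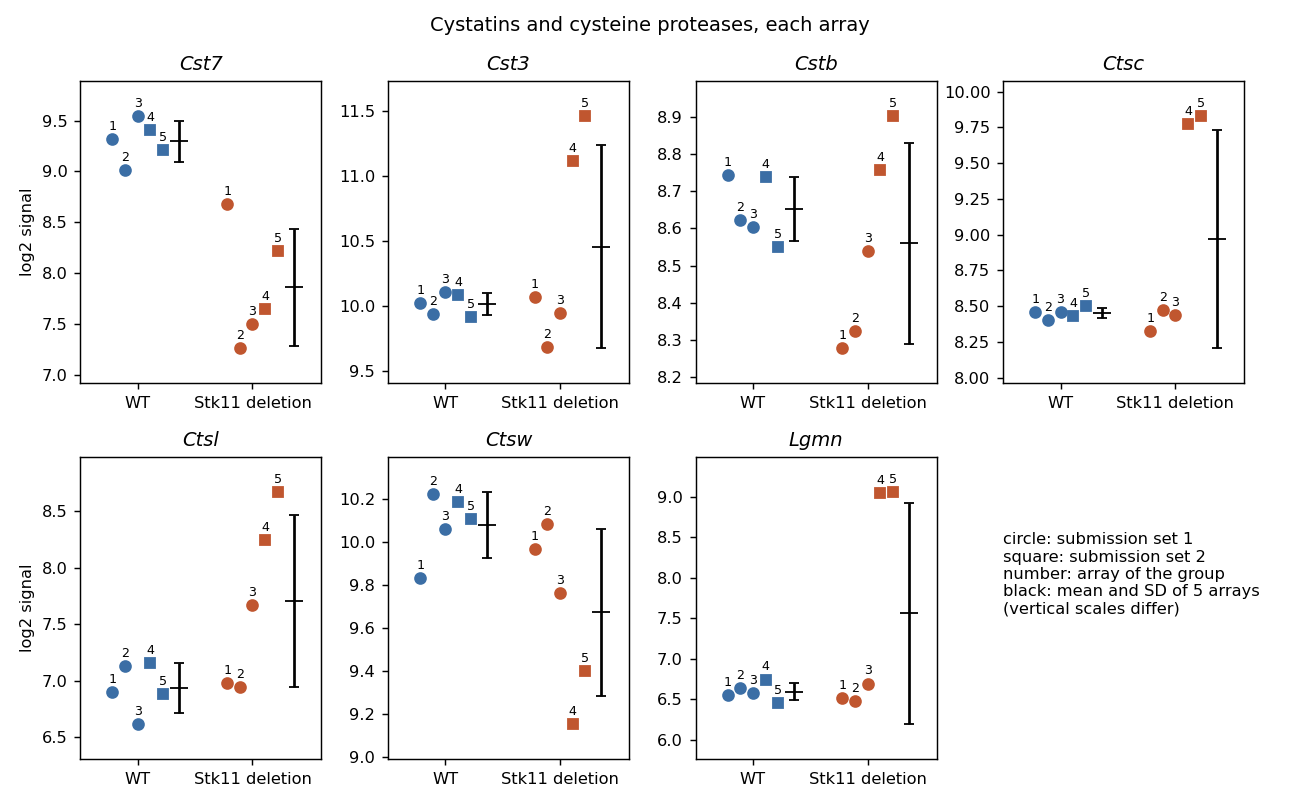
Log2 signal of each of the 7 genes on every array (vertical axes differ), with circles for set 1, squares for set 2, the array number beside each point and the mean and SD of 5 arrays in black. Cst7 is lower on all 5 Stk11 deletion arrays, whereas Cst3, Ctsc and Lgmn are higher on Stk11 deletion arrays 4 and 5 and near the WT arrays on the other 3.

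Promoter windows from RefSeq (GRCm38.p6), 250 bases before to 50 after an annotated start, were found for 5 of the 7 genes, with 6 windows in all; Cstb and Ctsw had no entry. They were searched on both strands for CACGTG, the E-box core read by the lysosomal regulator TFEB, and for TGACGTCA (cyclic AMP response element), TGANTCA (AP-1), TTCNNNGAA (STAT) and TTGCNNAA (C/EBP), which 7.15%, 1.79%, 7.81%, 8.30% and 10.8% of 32851 windows of the same length hold. Shown here are Cst7, the member that was lower on every array, and Cst3 and Ctsc, the pair of members with the closest profiles over the arrays; capitals mark matches. The Cst7 window is chr2:150570165-150570464 on the plus strand, that of Cst3 chr2:148875463-148875762 on the minus strand and that of Ctsc chr7:88277835-88278134 on the plus strand.
Cst7: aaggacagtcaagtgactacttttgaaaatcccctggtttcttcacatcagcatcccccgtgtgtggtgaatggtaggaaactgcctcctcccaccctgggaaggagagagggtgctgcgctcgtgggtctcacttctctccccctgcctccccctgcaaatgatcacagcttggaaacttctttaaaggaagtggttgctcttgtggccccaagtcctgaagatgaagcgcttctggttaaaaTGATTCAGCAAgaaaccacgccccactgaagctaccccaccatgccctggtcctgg
Cst3: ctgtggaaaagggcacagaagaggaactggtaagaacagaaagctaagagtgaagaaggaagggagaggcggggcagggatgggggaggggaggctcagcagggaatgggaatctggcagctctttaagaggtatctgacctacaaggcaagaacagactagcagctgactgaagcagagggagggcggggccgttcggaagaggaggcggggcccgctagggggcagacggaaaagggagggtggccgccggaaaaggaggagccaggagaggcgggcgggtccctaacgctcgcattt
Ctsc: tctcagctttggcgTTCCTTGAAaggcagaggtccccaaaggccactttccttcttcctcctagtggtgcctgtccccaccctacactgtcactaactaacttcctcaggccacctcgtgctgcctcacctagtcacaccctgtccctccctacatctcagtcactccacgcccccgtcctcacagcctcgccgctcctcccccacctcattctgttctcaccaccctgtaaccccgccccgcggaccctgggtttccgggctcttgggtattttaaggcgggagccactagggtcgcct
In Cst7 an AP-1 match at -6 and a C/EBP match at -3 from the start overlap. Cst3 holds none of the 5 motifs, and Ctsc holds a STAT match at -236. The E-box core was found in the Ctsl window at -236 and in 1 of 2 Lgmn windows at -49, and the Ctsl window also holds a C/EBP match at -114. A match is only a run of letters and shows no binding.

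The genes with the profile nearest to that of Cst7 were sought among 18728 other genes (no member, clone or predicted name, or antigen receptor segment), by the root mean square distance over the 10 arrays after subtracting each gene's own WT mean. They were Nrn1 (distance 0.30), Gstp3 (0.36), Il1r2 (0.39), Lclat1 (0.41) and Rgs16 (0.42). Il1r2 is the decoy receptor of interleukin 1, Rgs16 a brake on G protein signalling and Nrn1 a surface protein called neuritin. Their own differences were -1.19, -1.09, -1.30, -1.06 and -1.36 in that order. Rgs16 (adjusted p = 0.0054), Lclat1 (0.0089), Gstp3 (0.0150) and Nrn1 (0.0326) were called in limma and Il1r2 (0.0799) was not. Since they were picked for their likeness to Cst7, these calls add nothing to it.

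**Figure D2:**
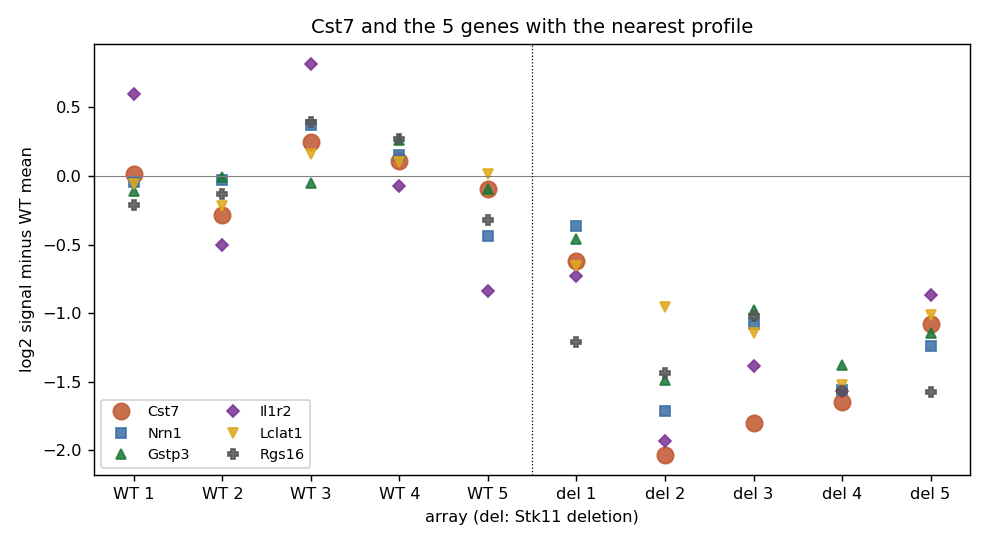
Log2 signal minus the gene's own WT mean on each array for Cst7 (large circles) and the 5 genes nearest to it. All 6 genes lie below their WT mean on each of the 5 Stk11 deletion arrays, and Cst7 lies lowest of the 6 on arrays 2, 3 and 4.

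The other cystatins did not share the pattern of Cst7. Cst3 was at 10.02, 9.93, 10.10, 10.09 and 9.91 on WT arrays 1 to 5 and at 10.07, 9.68, 9.95, 11.12 and 11.46 on Stk11 deletion arrays 1 to 5. Only arrays 4 and 5 were above the WT range, and array 2 was below it. The difference over all arrays was 0.44 (SE 0.29, 95% confidence interval -0.19 to 1.08, adjusted p = 0.543), made of -0.12 in set 1 and 1.29 in set 2, where Cst3 was 2.45-fold higher. The sets' differences were 1.41 apart (SE 0.23, adjusted p = 0.0101 in the limma interaction over all genes). That call was lost without WT array 5 (0.0764) or Stk11 deletion array 5 (0.0652). Its second probe set, at 9.02 to 9.31 on WT arrays, gave the same split, with 9.13, 8.82 and 9.11 on Stk11 deletion arrays 1 to 3 and 10.25 and 10.53 on arrays 4 and 5.

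Cstb had the smallest spread of the 7 over the Stk11 deletion arrays (SD 0.27). It was at 8.74, 8.62, 8.61, 8.74 and 8.55 on WT arrays and at 8.28, 8.32, 8.54, 8.76 and 8.90 on Stk11 deletion arrays 1 to 5. Stk11 deletion arrays 1 to 3 lay below every WT array and arrays 4 and 5 above every one. Its difference was -0.09 (SE 0.12, 95% confidence interval -0.36 to 0.18, adjusted p = 0.797), with -0.28 in set 1 and 0.19 in set 2, and the interaction of 0.46 (SE 0.19) was not called (adjusted p = 0.577).

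Of the proteases, Ctsc, whose product is inhibited by cystatin F and activates granzymes, was at 8.46, 8.40, 8.46, 8.43 and 8.50 on WT arrays. It was at 8.33, 8.47 and 8.44 on Stk11 deletion arrays 1 to 3 and at 9.77 and 9.83 on arrays 4 and 5. Ctsc and Cst7 thus went in opposite directions on arrays 4 and 5, and on arrays 2 and 3 Cst7 was low while Ctsc lay within the WT range. The difference of Ctsc was 0.52 (SE 0.28, adjusted p = 0.455) over all arrays, -0.03 in set 1 and 1.33 in set 2. The sets' differences were 1.36 apart (SE 0.17, interaction adjusted p = 0.0017), a call kept in each of the 10 fits that left out 1 array (adjusted p at most 0.0158).

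Lgmn, the legumain gene, had the widest split. It was at 6.55, 6.64, 6.58, 6.74 and 6.45 on WT arrays, at 6.51, 6.48 and 6.69 on Stk11 deletion arrays 1 to 3 and at 9.05 and 9.06 on arrays 4 and 5. Within set 2 it was 5.49-fold higher (difference 2.46), and within set 1 the difference was -0.03. The interaction was 2.48 (SE 0.19, adjusted p = 8.1e-05), also kept without each array in turn (adjusted p at most 0.0012). The difference over all arrays, 0.97 (SE 0.50, adjusted p = 0.417), therefore describes neither set.

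Ctsl, encoding a broad lysosomal endopeptidase, was at 6.90, 7.13, 6.62, 7.16 and 6.88 on WT arrays and at 6.98, 6.95, 7.67, 8.24 and 8.67 on Stk11 deletion arrays 1 to 5. Array 3 was above every WT array too. Its macrophage marker mean, 6.43, lay within the WT range but just under the WT maximum of 6.44. Of the 27 markers, 5 were above every WT array on all of arrays 1 to 3 together. Array 3 taken alone had more such markers, among them Cd68 at 8.89 (WT maximum 8.46). Cd14 and Siglech were below every WT array on array 3. What part such cells had in Ctsl was not tested. The difference was 0.77 (SE 0.29, 95% confidence interval 0.13 to 1.40, adjusted p = 0.256), with 0.32 in set 1 and 1.44 in set 2. The interaction of 1.12 (SE 0.34) was not called (adjusted p = 0.284).

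Ctsw, a cathepsin gene typical of NK cells and cytotoxic T cells, ran the other way. It was at 9.83, 10.22, 10.06, 10.18 and 10.11 on WT arrays and at 9.97, 10.08, 9.76, 9.15 and 9.40 on Stk11 deletion arrays 1 to 5. Arrays 3, 4 and 5 were below the WT range, arrays 4 and 5 by the most. The difference was -0.41 (SE 0.17, adjusted p = 0.286), with -0.10 in set 1 and -0.87 in set 2, and the interaction of -0.77 (SE 0.22) was not called (adjusted p = 0.255). The mean of 9 Treg and T cell identity genes was 10.81 and 10.73 on arrays 4 and 5 and 10.42 on array 1. WT arrays were at 10.92 to 10.99. Ctsw on array 1 lay within the WT range. The NK and cytotoxic T cell list mean was above its WT maximum of 5.27 on arrays 1, 4 and 5 alike (5.84, 5.81 and 5.90). What part cell content had in Ctsw was not tested.

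Thus 3 of the 7 members, Cst3, Ctsc and Lgmn, had a difference that depended on the set, all higher in set 2. Of all genes 1.08% were called by the interaction, 1.07% higher in set 2 and 0.00902% lower. The arrays on which they were high are those with the high macrophage marker mean, whose part in these differences was not tested. In the fit with these list means as covariates, the differences over all arrays were -0.22 for Cst3, -0.03 for Ctsc, -0.04 for Lgmn and 0.32 for Ctsl, and -0.14 for Ctsw. Without Stk11 deletion arrays 4 and 5 they were -0.11, -0.04, -0.03, 0.26 and -0.14 in the same order, none called (adjusted p 0.567 to 0.932). Arrays 4 and 5 hold the highest values of Cst3, Ctsc, Lgmn and Ctsl and the lowest of Ctsw, so leaving them out had to shrink these differences, and the macrophage covariate also peaked on arrays 4 and 5. In the same fits Cst7 was at -1.89 and -1.486 (adjusted p = 6.3e-04 and 0.0408).

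**Figure D3:**
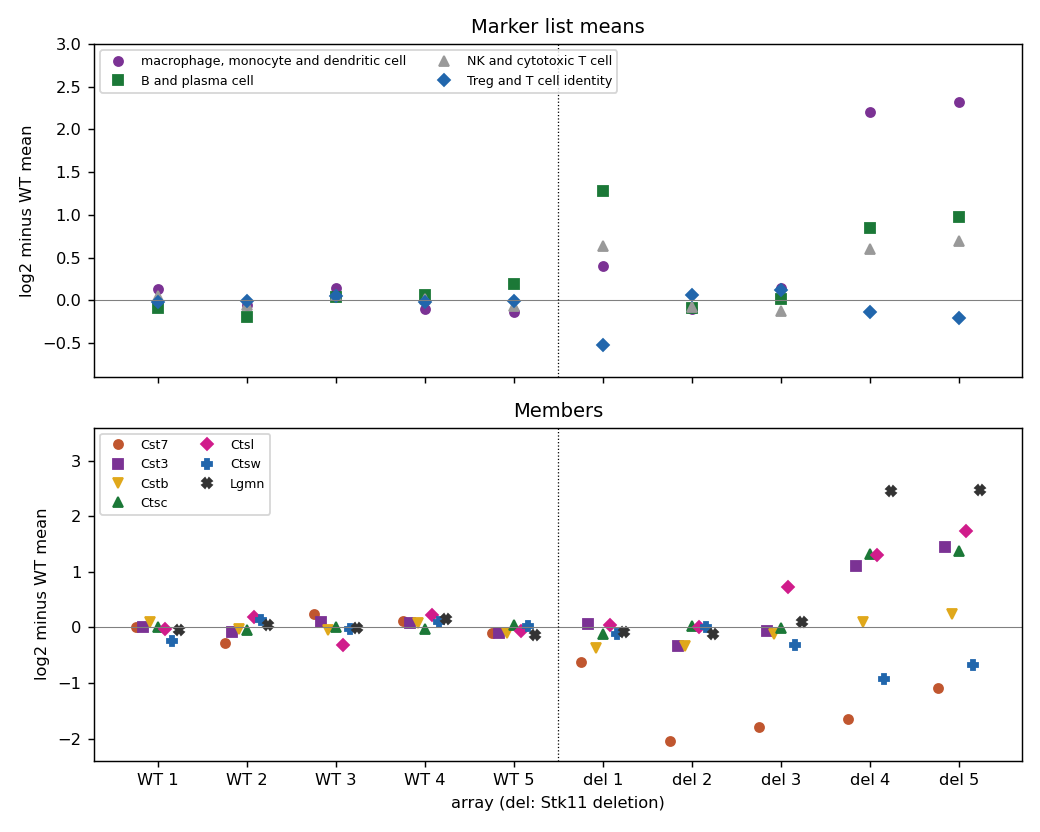
Mean log2 signal of 4 marker lists (above) and log2 signal of the 7 members (below) on each array, both minus their WT mean. The macrophage list mean and Cst3, Ctsc, Ctsl and Lgmn are high on Stk11 deletion arrays 4 and 5, and Cst7 is below its WT mean on all 5 Stk11 deletion arrays.

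**Figure D4:**
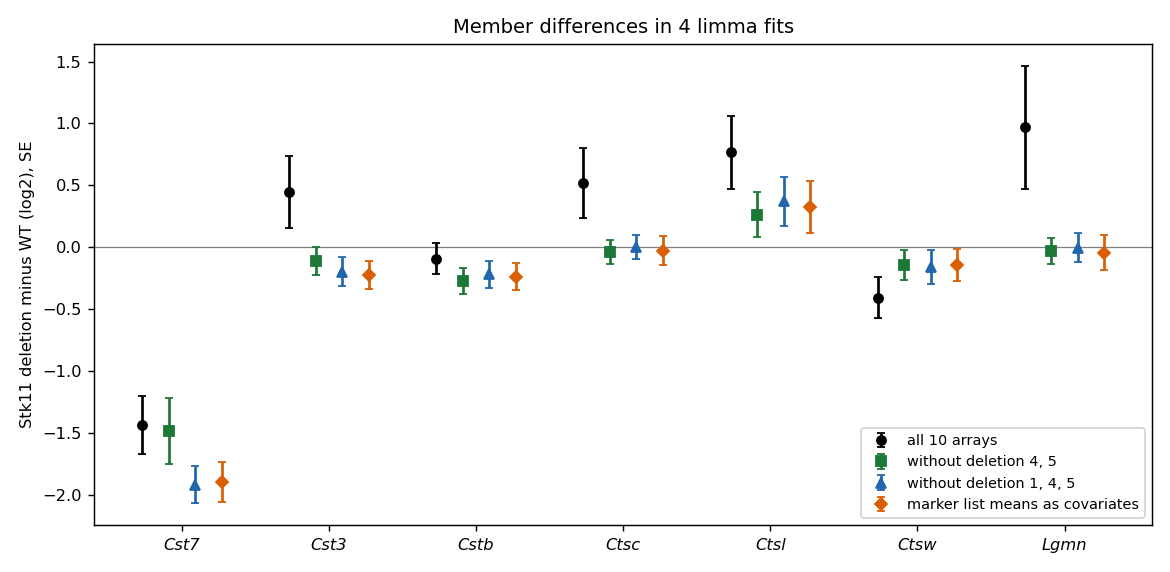
Stk11 deletion minus WT (log2, bars are SE) for each member in limma fits with all 10 arrays, without Stk11 deletion arrays 4 and 5, without arrays 1, 4 and 5, and with the means of both marker lists as covariates. Cst7 lies between -1.92 and -1.44 in the 4 fits, and Lgmn between -0.04 and 0.97.

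Profiles of the members were also compared over the 10 arrays, from the same values, so the distances only restate those values. The smallest distance between members was that of Cst3 and Ctsc (0.16), followed by Ctsc and Ctsl (0.31) and Cst3 and Ctsl (0.34). Cstb and Ctsw (0.48) came next, ahead of any pair with Lgmn, whose nearest member was Ctsl (0.49). The largest distance was that of Cst7 and Lgmn (1.93). Outside the family, Lgmn was nearest to Sdc3 (0.11), Ms4a7 (0.17) and Tgfbi (0.18), and Ms4a7 is 1 of the macrophage markers. Ctsc was nearest to Myof (0.08), Jup (0.11) and Pdgfc (0.12), Cst3 to Jup (0.14), Rgl1 (0.15) and Ccnd1 (0.15), and Ctsl to Apoe (0.14), Psap (0.22) and Slc15a2 (0.22). Apoe encodes the lipid carrier apolipoprotein E, abundant in macrophages, and Psap the precursor of the lysosomal saposins. Cstb was nearest to Ech1 (0.07), Mdh1 (0.07) and Phldb3 (0.08), of which Ech1 and Mdh1 encode metabolic enzymes. Ctsw was nearest to Snora31 (0.13), Qsox1 (0.13) and Nudt7 (0.15).

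The rest of the pathway was taken from 8 lists of genes, 98 of 103 of them measured. In limma 0 of the 98 rose and 0 fell over all arrays, where 1.06% of all genes were called. An unadjusted p under 0.05 was found for 15, against 14.0% of all genes. By the interaction with the set 12 of the 98 were called, all higher in set 2. Of all genes 1.08% were called by it, nearly all of them (1.07%) higher in set 2 too. The median difference of the 98 was 0.04 in set 1 and 0.14 in set 2, beside 0.01 and -0.03 over all genes.

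The list of other lysosomal cysteine cathepsins had 9 genes, including Tinag and Tinagl1, which are not cathepsin genes. Of the 9, 3 had a difference called as higher in set 2 by the interaction, against 1.07% of all genes. Ctsb, encoding the abundant cathepsin B, was at 9.65 to 9.87 on WT arrays, at 9.53, 9.29 and 9.76 on Stk11 deletion arrays 1 to 3 and at 11.49 and 11.43 on arrays 4 and 5 (interaction adjusted p = 6.4e-04). Its set 1 difference was -0.30. Ctsf went from -0.05 in set 1 to 1.30 in set 2 (0.0390) and Ctsz from 0.0004 to 0.94 (0.0353). Ctsh, an aminopeptidase gene, was at 0.36 and 2.53 and was not called (0.112); it was high on array 1 as well, at 7.42 against 5.64 to 6.16 on WT arrays. Ctss, the cathepsin of antigen presenting cells that trims the invariant chain, was at 10.80 to 11.06 on WT arrays. Stk11 deletion arrays 1 and 2 (10.42 and 10.70) lay below that range and arrays 4 and 5 (11.25 and 11.38) above it. Its difference of -0.02 was made of -0.28 in set 1 and 0.38 in set 2, with no call by the interaction (adjusted p = 0.353). Over all arrays 0 of the 9 were called in limma and 1 had an unadjusted p under 0.05.

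**Figure D5:**
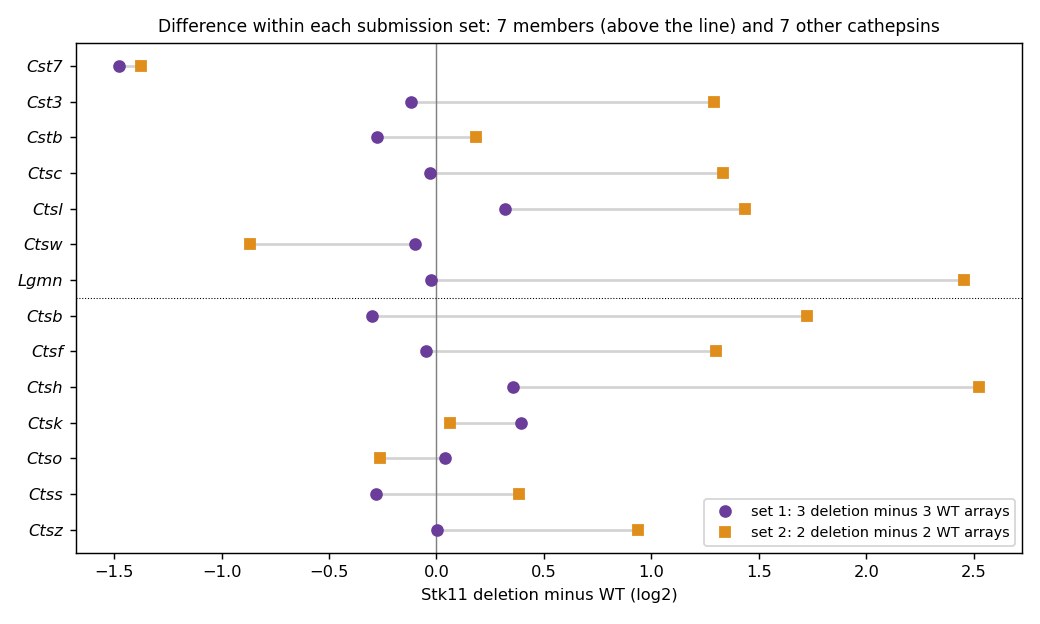
Stk11 deletion minus WT (log2) within set 1 (circles, 3 arrays against 3) and set 2 (squares, 2 against 2) for the 7 members and 7 other cathepsin genes. Cst7 has nearly the same difference in both sets, while Lgmn, Ctsb and Ctsh move from -0.03, -0.30 and 0.36 in set 1 to 2.46, 1.72 and 2.53 in set 2.

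The other lists held the following. Of 20 other cystatin genes, with WT means of 2.42 to 4.53, 0 were called in limma (1 at an unadjusted p under 0.05); Stfa2l1 (0.56), Cst9 (0.33) and Cst6 (-0.27) had the smallest p, and stefin genes such as Stfa2l1 have near-identical copies whose signals a probe set may mix. The 9 placental cathepsin genes had WT means of 2.55 to 3.94 and 0 calls (1 unadjusted), Ctsll3 (0.32), Cts7 (0.32) and Ctsr (0.13) leading. Such values cannot be told from background. Of 5 serine and aspartic protease genes, Ctsd, the main lysosomal aspartic protease, went from -0.07 in set 1 to 0.85 in set 2 (interaction adjusted p = 0.0417) and Napsa from 0.12 to 2.39 (0.0234), while Ctse was at 0.41 and 0.09 and its interaction was not called; 0 were called over all arrays (1 unadjusted).

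The granule proteases that cathepsin C activates, with perforin (Prf1) and the granule proteoglycan serglycin (Srgn), had 0 of 17 called in limma over all arrays and 3 at an unadjusted p under 0.05. Gzmc was at 3.98 to 4.65 on WT arrays and at 3.92, 3.92, 3.41, 3.21 and 2.84 on Stk11 deletion arrays, every one lower than any WT array (-0.89, SE 0.21, adjusted p = 0.0674). Its Stk11 deletion values lay in the range of the WT means of the placental cathepsin genes, which cannot be told from background. Srgn was at -0.23 (adjusted p = 0.352), again without overlap, and Prf1 at 0.56 (0.152). Gzmb, the granzyme that Treg cells are best known for, was at 5.53 to 6.61 on WT arrays and 6.05 to 6.66 on Stk11 deletion arrays (difference 0.01). Of the 17, 2 had no overlap between groups, both lower, against 3.71% of all genes.

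Among 19 genes of lysosomal sorting and control, 5 had a difference that was higher in set 2 by the interaction, against 1.07% of all genes. They were Sort1, a sorting receptor (0.19 in set 1, 2.33 in set 2, adjusted p = 0.0011), Grn, the progranulin gene (0.12 and 2.20, 0.0011), Psap (0.09 and 1.52, 0.0032), Lipa, the lysosomal acid lipase gene (-0.42 and 0.67, 0.0249) and Mitf (-0.32 and 0.87, 0.0436). Tfeb, which encodes the main transcription factor of lysosomal genes, was at -0.11 and 0.02, and the receptors that carry proteases to the lysosome, M6pr and Igf2r, were at -0.30 and 0.16 and at -0.21 and -0.04. Over all arrays 0 of the 19 were called in limma (3 unadjusted). Of 10 MHC class II processing genes, 2 were called as higher in set 2 by the interaction, against 1.07% of all genes. These were Ifi30, a lysosomal thiol reductase gene (-0.18 and 1.90, interaction adjusted p = 0.0272), and H2-DMa (-0.14 and 0.87, 0.0385). Ciita (0.57, adjusted p = 0.0844), H2-Aa (1.29, 0.159) and H2-Ab1 (1.30, 0.174) had the smallest p over all arrays, where 0 of 10 were called (4 unadjusted). In sets 1 and 2 Ciita was at 0.35 and 0.91, H2-Aa at 0.55 and 2.40 and H2-Ab1 at 0.55 and 2.44, none called by the interaction. H2-Aa and H2-Ab1 were high on Stk11 deletion array 1 too, at 10.06 and 10.67 (WT maxima 8.59 and 9.18). Of 10 serpins and other inhibitors, 0 were called (1 unadjusted). Ctla2a, an inhibitor resembling a cathepsin propeptide, was at 0.60 (adjusted p = 0.261), Serpinb6b at -0.30 (0.733) and Serpinb3a at -0.12 (0.715).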

How the data were processed

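Per the labels' protocols, Treg cells were sorted from the chimeras and lysed, RNA was extracted with a Qiagen RNeasy Micro kit and converted in nanogram amounts to biotinylated cDNA with NuGEN kits. The authors deposited log2 signals of 41345 probe sets; per the submitters' processing notes RMA and Partek 6.6 were used, with order and settings not given in the sources used here. Amplification can distort levels, and quantile normalization, a part of RMA, hides shifts shared by all genes. The platform annotation named 1 gene for 23521 probe sets, several for 1814 and none for 16010, leaving 22180 genes, none filtered.

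Groups came from the sample titles. Limma 3.58.1 (R 4.3.3; lmFit, eBayes, 4.36 prior degrees of freedom) compared 5 with 5 arrays, and a second fit held group, set and their interaction. The code was tested on simulated data. The number of arrays limits the precision. Genes named are the members, Stk11, Foxp3, Tinag, Tinagl1, each pathway list's called genes or 3 smallest p, each marker list's highest member and the nearest profiles. Chosen after seeing values were Ctss, Gzmb, Tfeb, M6pr, Igf2r, Csf1r, Fcgr4, Gp9, Klrg1, Klrd1, Cd8a, Cd68, Cd14, Siglech and the members' neighbours. Members, lists and tests were chosen with earlier results of these data known. Alternatives are in the closing section.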

Additional observations from a re-analysis of the deposited data

Results flagged for a closer look

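For 3 members the difference between the groups was not the same in the 2 sets, by the limma interaction over all genes. Set 2 exceeded set 1 by 2.48 for Lgmn, 1.36 for Ctsc and 1.41 for Cst3, and 238 of 22180 genes (1.07%) were called in that direction against 2 in the other. Of the 27 macrophage, monocyte and dendritic cell markers, 19 were among the 238. In none of the 14 groups of 5 arrays (7 members, both groups) did 1 array stand apart from its group by Dixon's criterion. That criterion seeks 1 array away from the rest, so it cannot flag 2 arrays that depart together. The Stk11 deletion arrays of set 2 did so for Lgmn and Ctsc. The gap over the range in that group was 0.012 for Lgmn and 0.076 for Ctsc, with a critical value of 0.71. Nothing about the set split is therefore read from this criterion.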

How the results depend on the processing

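Cst7 was negative in all 23 alternatives of the group fit, from -1.92 to -1.29, and called in 19 of them. Same-numbered arrays of the 2 groups deviated together at r of -0.08 to 0.10, and the numbers were not taken as pairs. The sample titles do not say whether WT and Stk11 deletion cells came from the same chimera, and these r values cannot exclude it. The main fit treats the arrays as independent. With the replicate block the difference of Cst7 had an adjusted p of 0.0471 in limma, and 50 genes were called in place of 236. Of the members and the pathway genes run with that block none changed its call. The genes nearest to Cst7, the marker genes and the interaction were not run with it. The number of members called lower was 0 in set 1 alone, where 0 of all 22180 genes were called (2247 at an unadjusted p under 0.05), and 2 in set 2 alone, and 0 to 1 when 1 array was left out. The number called higher was 4 in set 2 alone, a fit of 2 arrays against 2 that called 469 genes in all. Of the pathway genes 15 were called higher in set 2 alone. 1 was called lower with array medians subtracted, a trended robust prior, array weights, set 2 alone, or without Stk11 deletion arrays 1, 4 and 5, and 0 to 1 with 1 array left out; it was Gzmc except in the fit without the 3 arrays, where it was Stfa3. Members called by the interaction numbered 2 to 3 in its 16 alternatives.

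Signs turned as follows. With the marker list means as covariates, Cst3 was at -0.22, Ctsc -0.029, Lgmn -0.043, Foxp3 0.27, Ctsd -0.054, Napsa -0.17, Sort1 -0.018, Serpinb3a 0.019, Ctsb -0.30, Mitf -0.30, Lipa -0.29, Ifi30 -0.38 and H2-DMa -0.18. Without Stk11 deletion arrays 1, 4 and 5, Cst3 was at -0.20, Lgmn -0.0039, Foxp3 0.36, Ctsh -0.027, Ctsd -0.042, Napsa -0.19, Sort1 -0.0052, Serpinb3a 0.0046, Ctsb -0.27, Mitf -0.31, Lipa -0.28, Ifi30 -0.38 and H2-DMa -0.15. Without arrays 4 and 5, a fit added after seeing the data, Cst3 was at -0.11, Ctsc -0.039, Lgmn -0.029, Ctsd -0.075, Ctsb -0.26, Mitf -0.24, Lipa -0.35, Ifi30 -0.084 and H2-DMa -0.11. In set 1 alone, Cst3 was at -0.12, Ctsc -0.029, Lgmn -0.025, Ctsf -0.051, Ctsd -0.069, Ctsb -0.30, Mitf -0.32, Lipa -0.42, Ifi30 -0.18 and H2-DMa -0.14. In set 2 alone, Cstb was at 0.19, Foxp3 0.052 and Serpinb6b 0.18. Foxp3 was at 0.12 with array weights and, with 1 array left out, at -0.18 to 0.23. Lipa was at -0.024 with array medians subtracted and at -0.14 to 0.14 with 1 array left out, Mitf at -0.032 to 0.30, Serpinb6b at -0.48 to 0.046 and the interaction of Cst7 at -0.18 to 0.54. The cause of these changes was not tested. The arrays' number and the lack of detection calls limit the low genes.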

Other observations

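Of the 11 measured genes of the NK and cytotoxic T cell list, 2 rose (Klrd1 and Cd8a), 1 fell (Nkg7) and 8 did not pass the test. Of all genes 0.234% were called higher and 0.83% lower. Nkg7, which encodes a membrane protein of cytotoxic granules, was at 8.96 to 9.31 on WT arrays and at 8.62, 8.15, 7.74, 8.46 and 8.36 on Stk11 deletion arrays 1 to 5, and fell (-0.84, SE 0.15, adjusted p = 0.0236 in limma). Like Cst7 it was below every WT array on all 5, as were 3.71% of all genes, while 0.996% were above on all 5. Klrg1, a receptor of effector lymphocytes, was at -0.82 (adjusted p = 0.101), whereas Klrd1, the CD94 receptor gene of NK cells (1.53, adjusted p = 0.0170), and Cd8a, the CD8 co-receptor gene of cytotoxic T cells (0.77, adjusted p = 0.0423), were above every WT array on all 5.

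The genes next to the members in the RefSeq order did not pass the test. Apmap and Acss1, which follow Cst7 on chromosome 2, were at -0.14 and 0.07, and Zfp345 and 3300002I08Rik, which precede it, at 0.20 and 0.03. Rab38 and Grm5 beside Ctsc were at 0.17 and 0.09, and Rin3 and Golga5 beside Lgmn at 0.10 and -0.19.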
